A study of Mus musculus with 5 samples.

Results

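CREB regions inside gene bodies were the merged CREB binding regions of mouse fetal testis that lay within a protein-coding gene and away from its ends. They were selected on the CREB peak lists: peaks of the 3 stages were merged where they shared at least 1 bp, and a merged region was kept when its midpoint fell between the outer ends of a protein-coding gene and it did not touch the 1000 bp on either side of any protein-coding gene end. Of 4092 merged regions, 617 (15.1%) met this rule, 3051 lay at gene ends and 424 lay outside protein-coding genes. The assay was CUT&RUN, where an antibody tethers a nuclease that frees the DNA next to the bound protein. Fetal testis of 3 embryonic stages, E13.5, E16.5 and E18.5, was assayed with a CREB antibody, and fetal testis at E18.5 with an H3K4 antibody, 1 library each, with no genotype, strain or treatment given. Each assay used 100000 gonadal cells that had passed a 70 µm filter, and no sort is named, so every list mixes the supporting, steroid-producing, germ, vascular and other cells of the gonad. The labels do not say which methylation state of H3K4 the antibody recognises. With 1 library per group there is no replicate, no test was made between stages, and the 95% Wilson intervals below cover counting error only.

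CREB is a leucine-zipper transcription factor that protein kinase A phosphorylates when cyclic AMP rises, and in the testis cyclic AMP carries the signals of the gonadotrophins and related hormones. It binds the cyclic AMP response element (CRE), a palindrome that can lie close to transcription starts. Many genes have a start inside the span that their longest transcript covers, and methylated H3K4 marks the chromatin beside active starts. A CREB region inside a gene can therefore lie at a start within that span, at an enhancer, or at neither.

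Where a member overlapped the 300 bp window around a transcription start listed by RefSeq (250 bp before the start to 50 bp after it, build GRCm38.p6), the sequence of that window could be read, and 248 of the 617 members overlapped one, in 247 different windows. The windows below were chosen after their values were seen, because they carry the sequence pattern described next. The first 4 belong to members with peaks at all 3 stages and hold the full CRE. Prkar1a and Ldha hold it in members listed at E16.5 alone. Nr4a1 and Lrif1 were listed at all 3 stages and hold its core without the palindrome. The Sin3a window, listed at E18.5 alone, is that of the antisense lncRNA gene 2700012I20Rik inside Sin3a. Each window is written 5′ to 3′ on the strand of its start, the last 50 bases begin with the listed start, and capitals mark the CRE core TGACG or its reverse complement CGTCA, which join as TGACGTCA in the palindrome.
Aptx, chr4:40703145-40703444, minus strand: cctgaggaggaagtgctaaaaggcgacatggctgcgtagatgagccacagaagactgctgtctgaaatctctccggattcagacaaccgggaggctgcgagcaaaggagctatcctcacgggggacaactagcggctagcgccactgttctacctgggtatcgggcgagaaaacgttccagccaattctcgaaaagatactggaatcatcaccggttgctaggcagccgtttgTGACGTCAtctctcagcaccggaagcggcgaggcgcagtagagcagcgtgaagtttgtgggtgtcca
Ppp1r12c, chr7:4501631-4501930, minus strand: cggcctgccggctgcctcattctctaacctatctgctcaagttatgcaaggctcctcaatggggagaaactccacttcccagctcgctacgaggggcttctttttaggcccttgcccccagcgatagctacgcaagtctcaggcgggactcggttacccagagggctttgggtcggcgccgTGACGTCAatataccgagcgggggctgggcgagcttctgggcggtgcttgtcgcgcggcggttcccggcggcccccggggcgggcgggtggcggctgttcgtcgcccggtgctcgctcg
Zfp874b, chr13:67484204-67484503, minus strand: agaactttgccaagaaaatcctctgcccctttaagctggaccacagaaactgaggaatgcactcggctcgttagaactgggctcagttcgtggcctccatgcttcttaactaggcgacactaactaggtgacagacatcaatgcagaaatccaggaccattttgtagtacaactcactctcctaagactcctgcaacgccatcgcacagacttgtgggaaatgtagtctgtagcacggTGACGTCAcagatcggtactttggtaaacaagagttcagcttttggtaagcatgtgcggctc
Zbtb11, chr16:55973554-55973853, plus strand: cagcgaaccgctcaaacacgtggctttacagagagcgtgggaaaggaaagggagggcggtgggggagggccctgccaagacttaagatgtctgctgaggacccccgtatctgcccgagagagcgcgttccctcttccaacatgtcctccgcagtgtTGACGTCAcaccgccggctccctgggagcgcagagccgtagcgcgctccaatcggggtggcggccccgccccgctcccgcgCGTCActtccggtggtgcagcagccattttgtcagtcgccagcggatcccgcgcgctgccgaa
Prkar1a, chr11:109650699-109650998, plus strand: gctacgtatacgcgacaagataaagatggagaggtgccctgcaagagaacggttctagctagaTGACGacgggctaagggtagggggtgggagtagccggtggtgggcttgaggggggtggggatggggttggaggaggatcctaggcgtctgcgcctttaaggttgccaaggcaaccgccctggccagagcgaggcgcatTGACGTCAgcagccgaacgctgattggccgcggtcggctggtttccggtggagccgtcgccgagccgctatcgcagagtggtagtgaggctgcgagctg
Ldha, chr7:46845554-46845853, plus strand: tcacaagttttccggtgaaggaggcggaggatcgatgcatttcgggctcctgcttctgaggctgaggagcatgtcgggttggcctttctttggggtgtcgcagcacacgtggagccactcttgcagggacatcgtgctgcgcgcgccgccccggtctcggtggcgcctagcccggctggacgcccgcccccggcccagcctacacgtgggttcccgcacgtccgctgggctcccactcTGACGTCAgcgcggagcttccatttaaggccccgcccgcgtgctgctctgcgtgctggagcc
Nr4a1, chr15:101266596-101266895, plus strand: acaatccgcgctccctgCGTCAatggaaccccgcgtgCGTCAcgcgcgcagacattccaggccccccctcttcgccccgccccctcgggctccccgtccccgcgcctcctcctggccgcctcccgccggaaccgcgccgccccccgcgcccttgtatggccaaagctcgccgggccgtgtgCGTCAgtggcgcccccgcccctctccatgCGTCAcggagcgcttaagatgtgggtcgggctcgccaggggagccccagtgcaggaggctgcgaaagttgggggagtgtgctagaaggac
Lrif1, chr3:106721432-106721731, plus strand: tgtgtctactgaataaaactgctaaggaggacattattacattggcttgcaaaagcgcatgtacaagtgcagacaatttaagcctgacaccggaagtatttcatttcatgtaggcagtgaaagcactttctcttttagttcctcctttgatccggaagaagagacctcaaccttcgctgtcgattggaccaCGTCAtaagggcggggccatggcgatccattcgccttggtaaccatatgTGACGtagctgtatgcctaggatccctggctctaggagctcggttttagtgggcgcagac
Sin3a, chr9:57076000-57076299, minus strand: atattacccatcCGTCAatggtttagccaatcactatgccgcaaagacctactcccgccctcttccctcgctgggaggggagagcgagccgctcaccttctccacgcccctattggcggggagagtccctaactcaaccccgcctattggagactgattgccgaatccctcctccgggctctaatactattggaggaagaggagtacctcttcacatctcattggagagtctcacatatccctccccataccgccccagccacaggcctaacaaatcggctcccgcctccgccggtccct

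The palindrome TGACGTCA was present in 23 of the 247 member windows (9.31%, interval 6.29 to 13.6%), against 11.3% of the 2412 windows at CREB regions of gene ends. It was present in 1.12% (0.625 to 1.99%) of 984 windows at protein-coding starts that lay over 2000 bp from any protein-coding gene end and had an H3K4 midpoint but no CREB region within 1000 bp, and in 1.79% of all 32851 listed windows. The CRE core TGACG, searched on both strands and contained in the palindrome, was present in 54.7% of member windows, against 60.2% at gene ends, 20.5% at internal starts with H3K4 and no CREB region, and 20.8% of all windows. Median GC content was 61.7% in member windows and 60.7% in those internal starts, and the median number of CpG dinucleotides was 21 in member windows and 17 in those internal starts. Of the other motifs searched, the ETS site CCGGAAG was in 20.6% of member windows and 8.54% of internal starts without CREB, CCAAT was in 51.8% of member windows and 28.6% of those starts, and GGGCGGG was in 50.2% of member windows and 45.2% of those starts. Of all listed windows, 8.86% held CCGGAAG, 37.4% CCAAT and 25.6% GGGCGGG. The E-box CACGTG was in 8.10% of member windows and 7.93% of those starts, and the AP-1 site (TGAGTCA, whose reverse complement is TGACTCA) was in 6.07% of member windows and 3.76% of those starts, beside 7.15% and 5.20% of all listed windows. Each was searched on both strands, none of these overlaps another in full, and a match is a description of letters.

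Lekr1, picked out like the other palindrome hosts after its values were seen, held 2 palindromes in 1 window, and in each of the 23 windows the palindrome nearest the listed start was measured. All 23 of these lay inside the CREB region itself, but each window was taken because a region overlapped it. All 23 regions also held an E16.5 peak, 630 bp wide against a window of 300 bp. Containment was thus largely set by the selection. Their first base lay between 202 bp upstream and 16 bp downstream of the listed start, with a median of -31 bp, and 18 of them began within the 100 bp upstream of it. The median distance from the palindrome to the midpoint of the E16.5 peak was 40 bp over all 23. To the narrower peaks it was 56.5 bp for the 6 with an E13.5 peak and 79 bp for the 11 with an E18.5 peak. In Zbtb11, a zinc-finger gene, the CRE centre fell 0 bp from the E16.5 midpoint and 18 bp from both other stages' midpoints. In Prkar1a, which encodes a regulatory subunit of protein kinase A, it lay 8 bp from the E16.5 midpoint. In Ldha, the lactate dehydrogenase A gene, it lay 20 bp away. The other palindrome windows, also picked out after their values were seen, were those of Abcg2, Ap2b1, Atad2b, Clasp2, Gemin6, Lmbrd1, Mycbpap, Skp1, St7, Taf11, Tiprl, Tmem144, Tmem219 and Zfp595, and the lncRNA starts Gm26744 in Map3k13 and Gm39084 in Tnrc6a.

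By stage, the palindrome was in 6 of 51 windows of members with all 3 stages (11.8%), 5 of 91 with E16.5 and E18.5 (5.49%), 12 of 76 with E16.5 alone (15.8%) and 0 of 29 with E18.5 alone, which allows a share of up to 10.3%, where the limit for a count of 0 is 3 counts of the total. At gene ends it was in 15.6% of windows with all 3 stages, 10.5% with E16.5 and E18.5, 13.6% with E16.5 alone and 0 of 260 with E18.5 alone, which allows up to 1.15%. The Wilson interval of E16.5 alone, 9.27 to 25.6% among members and 10.9 to 16.8% at gene ends, overlapped that of E18.5 alone among members and did not at gene ends. Such intervals cover counting error only and do not test between stages, each of which is 1 library. The CRE core was in 72.5% of all-stage member windows, 51.6% with E16.5 and E18.5, 55.3% with E16.5 alone and 31.0% with E18.5 alone. The AP-1 site was in 0 of 51 all-stage member windows, which allows up to 5.88%, and in 4 of 29 with E18.5 alone (13.8%), and the Wilson intervals of these shares overlapped. At gene ends it was in 3.085% of all-stage windows and 3.077% of those with E18.5 alone. Peaks at E16.5 were 630 bp wide and those at E18.5 were 160 bp wide, so a region with an E16.5 peak reaches a window from farther off, and the part of this width in these shares was not tested.

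**Figure D1:**
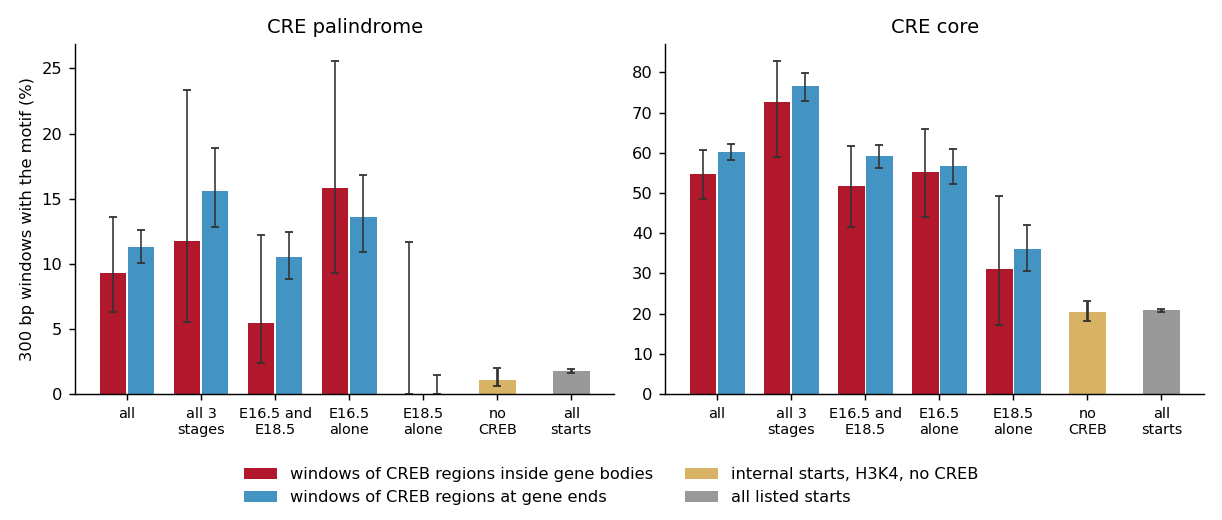
Share of 300 bp start windows that hold the CRE palindrome (left) or its core (right), in percent, for windows overlapped by CREB regions inside gene bodies and at gene ends, by the stages listed, with internal starts that have H3K4 and no CREB region and all listed starts beside them. Bars are shares and lines are 95% Wilson intervals. In E18.5-alone regions the palindrome was in 0 of 29 gene-body windows and 0 of 260 gene-end windows.

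The H3K4 list, which the rule did not use, had a peak midpoint within 1000 bp of 410 of the 617 members (66.5%, 62.6 to 70.1%), against 93.1% of gene-end regions and 46.5% of regions outside genes. Over all merged CREB regions, most of which lay at gene ends, the share was 84.3%, so members lay below that share. The 1000 bp on either side of H3K4 midpoints cover 1.26% of the gene-body bases that the rule leaves on chromosomes with listed starts. Direct overlap with an H3K4 peak was found for 49.6% of members and 67.6% of gene-end regions. Among members, the share was 81.3% (71.1 to 88.5%) with all 3 stages, 82.7% (76.3 to 87.6%) with E16.5 and E18.5, 57.4% (51.3 to 63.3%) with E16.5 alone and 54.9% (45.2 to 64.2%) with E18.5 alone, so the intervals of the shared and the single-stage patterns did not overlap. At gene ends the highest of these shares was 95.7%, with all 3 stages, and the lowest was 324 of 360, with E18.5 alone. Outside protein-coding genes they were 82.5% with all 3 stages, 56.4% with E16.5 and E18.5, 41.7% with E16.5 alone and 31.15% with E18.5 alone. A lower share in single-stage patterns was thus not particular to members. Of the 9 members listed at E13.5 alone, 2 had H3K4, those in Gm20783 and in Fuz, a planar polarity gene of cilia. The other 7 lay in Crlf2, Ly96, Evc2, Pwwp3b, Add2, Sdk1 and Nhsl1, of which the last 3 and Fuz were picked out after their values were seen. The E13.5 peaks in Crlf2 and Gm20783 may lie in regions of high background, which was not tested, since no list of such regions was used here. Since H3K4 was profiled at E18.5, it is matched in time to that stage only.

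A start listed by RefSeq lay within 1000 bp of 281 of the 602 members on chromosomes with listed starts (46.7%, 42.7 to 50.7%), against 84.9% of gene-end regions, 14.8% of outside regions and 71.9% of all CREB regions. The 1000 bp on either side of listed starts cover 1.30% of the 956636506 gene-body bases that the rule leaves. H3K4 peaks of gene bodies with no CREB region within 1000 bp had a listed start within that distance in 41.1% of cases. Closeness to a start followed stage sharing among members, with 71.6% for all 3 stages, 59.1% for E16.5 and E18.5, 35.5% for E16.5 alone and 38.8% for E18.5 alone. Outside protein-coding genes the shares in these patterns were 30.8%, 22.2%, 11.3% and 6.78%. Members with a start had H3K4 in 91.1% of cases (256 of 281) and members with none in 45.5% (146 of 321), while at gene ends the same shares were 94.1% and 88.0%. Outside protein-coding genes they were 85.25% and 40%. Members thus fell into 256 with start and H3K4, 146 with H3K4 alone, 25 with a start alone and 175 with neither. Only 484 of the 582 host genes had a listed start, so some members without one lie in genes whose starts are not listed.

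**Figure D2:**
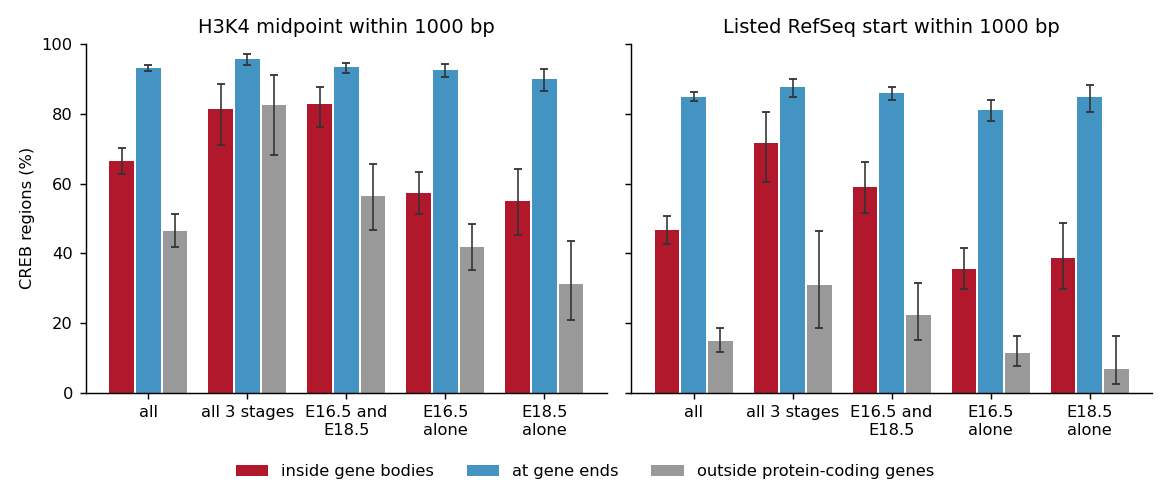
Share of CREB regions, in percent, with an H3K4 midpoint (left) or a listed RefSeq start (right) within 1000 bp, for regions inside gene bodies, at gene ends and outside protein-coding genes, in all and by the stages listed. Bars are shares and lines are 95% Wilson intervals. Gene-body regions with all 3 stages reached 81.3% and 71.6%, those with E16.5 alone 57.4% and 35.5%.

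The nearest start belonged to the host gene in 257 of the 281 cases and to an lncRNA gene in 24. For 129 of the 257 it was the only start listed for that gene, and for 157 it was the first one, so that the annotated gene began upstream of any listed start. Nr4a1, an orphan nuclear receptor gene that cyclic AMP induces, is of this kind: its only listed start lay 135.5 bp from the region midpoint and the region 12808.5 bp inside the gene's outer 5′ end. Rfx1, Srf, Fbxo33, Hdac4, Hnrnpl, Edem1 and Nbeal1 also had 1 listed start and a member within 1000 bp of it. For the other 100 of the 257 it was a later start: the second of 2 in Lrif1, Egf, Dcaf11, Ptprs and Creb5, and the fifth of 6 in Prkar1a. Among host genes with a listed start, 44.8% had their first one over 1000 bp from the outer end, against 9.95% of all protein-coding genes, and 40.5% had more than 1 listed start, against 15.8%. The rule itself favours such genes, since a region at a start near an outer end was classed as gene end.

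Viewed from the starts, 3071 protein-coding starts lay over 2000 bp from any protein-coding gene end, and 39.7% of them had H3K4 within 1000 bp, against 56.5% of 17382 starts within 1000 bp of an end. Of the internal starts with H3K4, 19.3% (17.2 to 21.6%) had a CREB region within 1000 bp, against 31.4% (30.5 to 32.3%) of the outer starts with H3K4. The E13.5 list had a CREB midpoint at 3.86% of internal starts with H3K4 and 7.92% of outer ones, the E16.5 list at 17.5% of internal and 27.97% of outer ones, and the E18.5 list at 12.7% of internal and 25.01% of outer ones. Starts without H3K4 rarely had CREB, 1.24% of internal and 1.75% of outer ones.

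CREB and H3K4 midpoints were placed differently around the starts of host genes. Each start was taken as the listed one nearest the CREB midpoint, so the closeness of CREB to it is in part set by this choice. Over the 257 members at a host start, the CREB midpoint lay at a median of -69.5 bp, upstream in 67.3% of cases and within 100 bp in 40.9%. The 338 H3K4 midpoints within 1000 bp of those starts had a median of 175.5 bp and lay downstream in 67.5% of cases, and 11.2% were within 100 bp. In the bin of 100 bp just upstream of the start, 26.8% of CREB midpoints but 2.37% of H3K4 midpoints were found. The bins before and after it held 8.28% and 8.88% of H3K4 midpoints. Gene-end regions had medians of -65.5 bp for CREB and 142.5 bp for H3K4, close to those of the members. H3K4 midpoints on both sides within 1000 bp were found for 14.4% of members and 27.2% of gene-end regions.

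**Figure D3:**
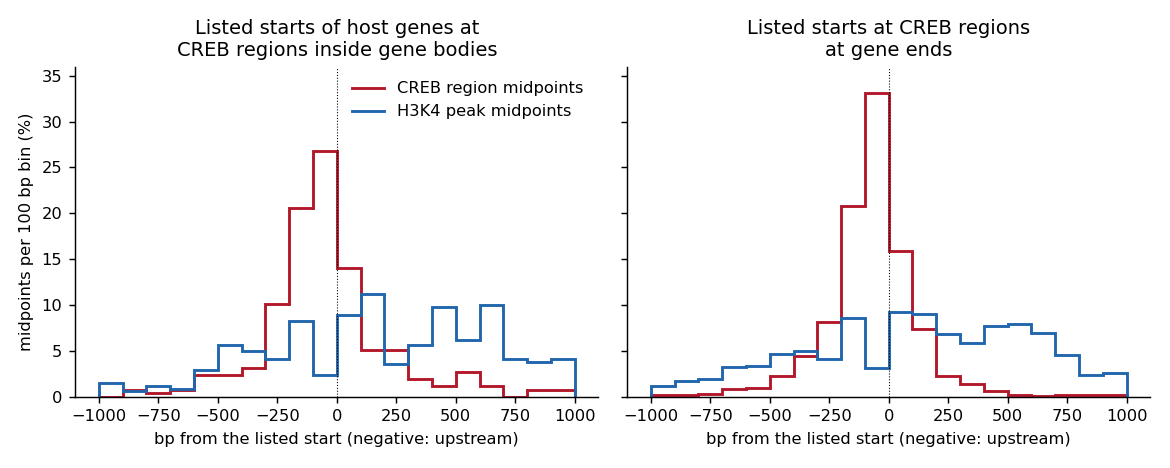
Distribution of CREB region midpoints and H3K4 peak midpoints around listed starts, in percent of midpoints per 100 bp bin, for host gene starts at CREB regions inside gene bodies (left) and starts at gene-end CREB regions (right). Negative distances are upstream. CREB midpoints peak just upstream of the start, where 2.37% of H3K4 midpoints lie at gene-body starts.

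The E13.5 list of 862 peaks reached 86 members, the E16.5 list of 3528 peaks 505, and the E18.5 list of 2957 peaks 351. All 3 stages were listed for 75 members (12.2%), E16.5 and E18.5 for 173 (28.0%), E16.5 alone for 256 (41.5%) and E18.5 alone for 102 (16.53%). Gene-end regions had 21.5%, 43.3%, 22.4% and 11.8% in these patterns, so single-stage regions made up more of the members. The members' shares depend on the length of the lists: with each list limited to as many first peaks as the E13.5 list holds, 40.6% of 123 members were listed at all 3 stages and 13.01% at E16.5 alone, the reverse order. Read the other way, members were 9.72% of all regions with 3 stages, 10.8% of those with E16.5 and E18.5, 22.3% of E16.5 alone and 19.5% of E18.5 alone. The remaining members were 9 at E13.5 alone and 1 each for the 2 pairs with E13.5, in Usp15 and in Crlf2. Single-stage members mostly had no near neighbour at another stage: a CREB midpoint of another stage lay within 1000 bp of 6 of 256 at E16.5 alone and 13 of 102 at E18.5 alone, and the median distance to one was 150018.5 bp and 39955.5 bp in these patterns. Absence from a list does not show that a region was unbound, because the depth is unknown and the lists differ in length.

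**Figure D4:**
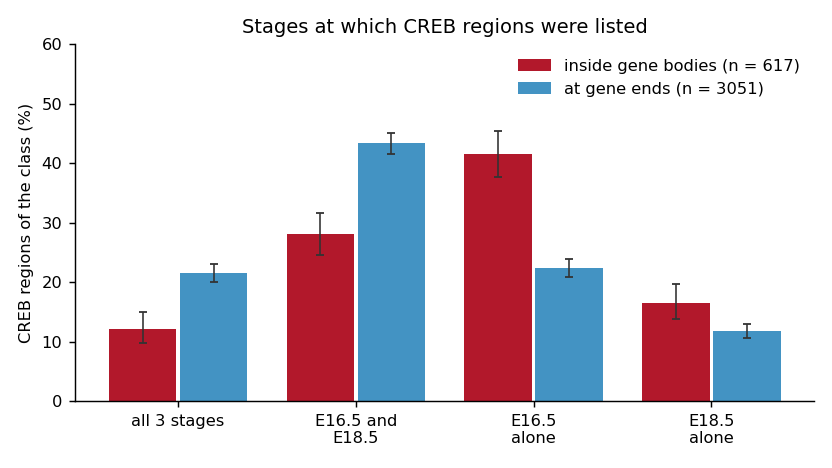
Stages at which CREB regions were listed, as percent of the 617 regions inside gene bodies and of the 3051 regions at gene ends, with 95% Wilson intervals. E16.5-alone regions were 41.5% of gene-body and 22.4% of gene-end regions.

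The order of peaks in the files, whose meaning the sources do not give, was expressed as percent of the list, averaged over the stages of a region. Over all stage patterns, members had a median of 67.7% and gene-end regions 53.0%, and members held more single-stage regions, whose positions were later. Within a pattern the medians were 27.6% for both with all 3 stages, 55.6% for members and 51.9% for gene-end regions with E16.5 and E18.5, 79.1% and 71.85% with E16.5 alone, and 79.2% and 76.2% with E18.5 alone. Members with a listed start had a median of 56.9%, those with H3K4 and no start 66.2%, and those with neither 83.6%, groups that differ in their stage patterns as well. Among the members with all 3 stages, the one with the earliest mean position was in Lrif1, a nuclear receptor-interacting factor gene involved in silencing, at positions 18, 20 and 19 of the E13.5, E16.5 and E18.5 lists. It lay at chr3:106721422-106722051, 54.5 bp downstream of the second listed start and 36794.5 bp inside the gene. Next came Pmvk, which encodes phosphomevalonate kinase of cholesterol synthesis, at positions 22, 10 and 72, at chr3:89458593-89459222, 663.5 bp upstream of its second start and 589 bp from H3K4. Both genes were picked for their early list positions, so these positions are not a separate result. In Lrif1 the region lay at a later start of the gene, and in Pmvk it lay farther upstream of one.

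The next all-stage members were in Rfx1, a winged-helix transcription factor gene (positions 44, 14 and 27), Morf4l2, an acetyltransferase complex subunit gene (54, 139 and 53), Anapc15 of the anaphase-promoting complex (77, 38 and 191) and Srf, the serum response factor gene (103, 253 and 73). Ssc4d, Fbxo33, Rnf44, Egf, Dcaf11 and Tcf25 followed. Of these 12, all but Ssc4d had a listed start within 1000 bp, and Ssc4d, whose member lay 11782.5 bp from the nearest, had H3K4 at 257 bp. Morf4l2, Srf and Rnf44 had no H3K4 midpoint within 1000 bp, with the nearest at 1001, 1406 and 1129 bp. Ccnd3, the cyclin D3 gene, and Sin3a were the next all-stage hosts without H3K4. Ccnd3 held a further all-stage member 88343.5 bp inside the gene, 72.5 bp upstream of its second start and with H3K4.

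**Figure D5:**
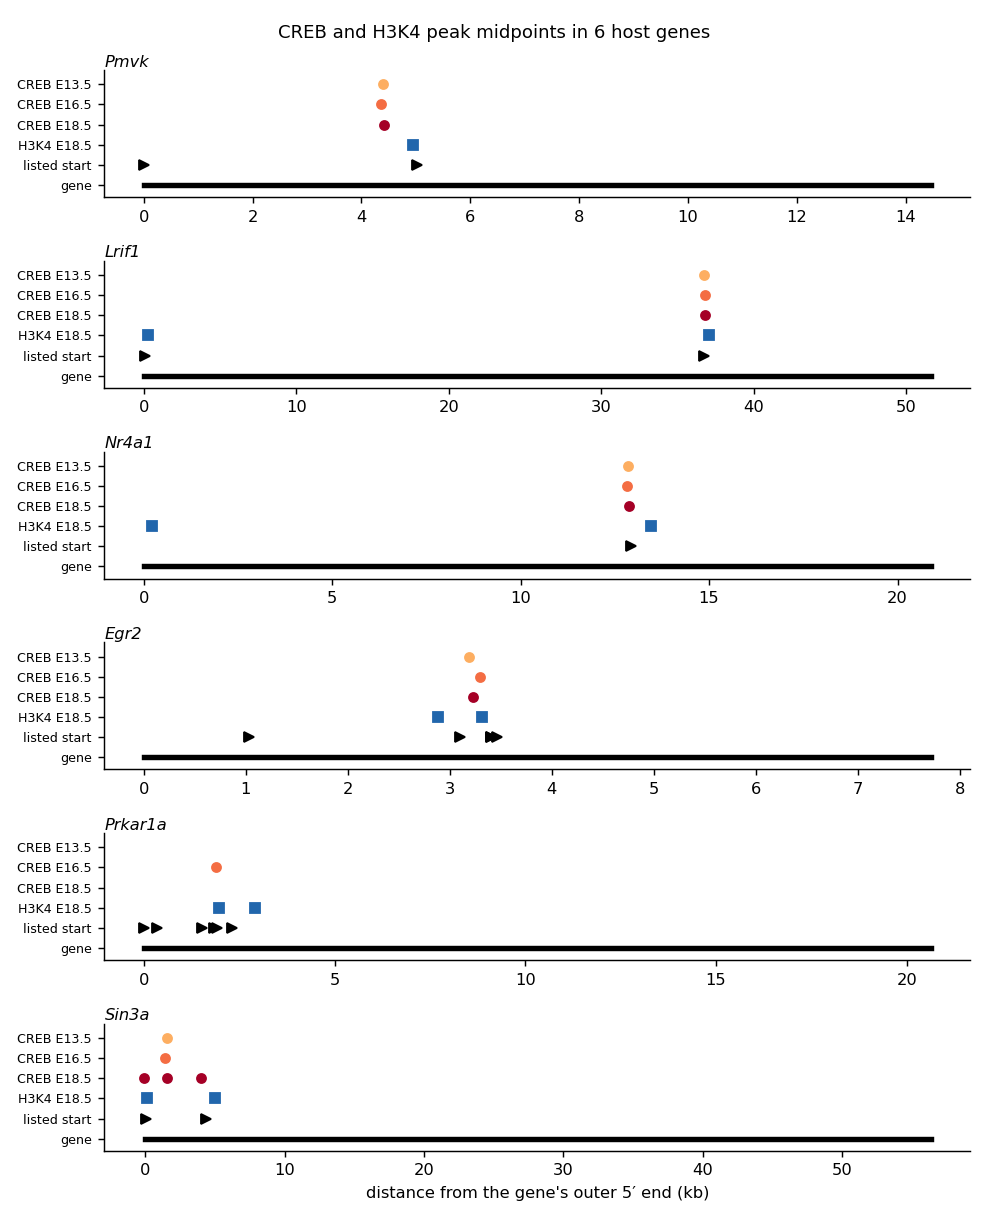
CREB peak midpoints at each stage, H3K4 peak midpoints at E18.5 and listed starts in 6 host genes, by distance from the gene's outer 5′ end in kb. Each panel has its own scale and the bar is the annotated gene. In Lrif1, Nr4a1 and Egr2 the peaks of the 3 stages fall together beside an internal start. In Pmvk they fall together at 4.37 to 4.42 kb, upstream of the internal start at 5.03 kb.

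Of 34 genes that cyclic AMP is known to induce, 8 (23.5%) hosted a member, against 2.66% of all 21887 protein-coding genes. The median length of these 34 genes was 10367.5 bp. Among them Egr2, an immediate early zinc-finger gene, had an all-stage member (positions 321, 735 and 885) 102.5 bp upstream of the third of 5 listed starts and 18 bp from H3K4. Nr4a1 had one at positions 610, 1059 and 593, at chr15:101266396-101267025, with H3K4 at 663 bp. The window of Nr4a1 printed above holds 4 copies of the CRE core. Crem, whose internal start gives the repressor isoform ICER, had E16.5 and E18.5 peaks (positions 440 and 2193), 80.5 bp from H3K4. Fosb, an AP-1 subunit gene, had an E18.5 peak 219 bp from H3K4, Maff had an E16.5 peak, and Vgf, a neuropeptide precursor gene, had E16.5 and E18.5 peaks with the nearest H3K4 at 2913 bp. The remaining hosts, Pde4d and Pde4b, are described below, and several of the lists share hosts. A count over a list chosen with earlier results of these data known is a description.

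Of 38 genes for protein kinase A subunits, anchors and cyclic AMP turnover, 4 hosted a member (10.5%). These genes are long, with a median of 118172.5 bp, so the count is to be read against the 7.33% of genes over 100000 bp that host one. Pde4d and Pde4b, phosphodiesterases that break down cyclic AMP and whose short isoforms start inside the gene, had members with E16.5 and E18.5 peaks. In Pde4d it lay 1168352.5 bp into the gene (89.7% of its span from the 5′ end) and 99 bp from H3K4, and in Pde4b 423765.5 bp into the gene (81.5%) and 125 bp from H3K4. Neither had a listed start within 1000 bp. Pde4c had an E16.5 peak 154 bp from H3K4, and Prkar1a the E16.5 peak at its CRE, 77 bp from H3K4. Of 30 genes known for starts inside the gene, 8 hosted a member, among them Nr4a1, Crem, Pde4d, Pde4b, Gnas, Ptprd and Arhgef7. This list is of long genes, with a median of 211342.5 bp, so its share of 26.7% is to be read against the same 7.33%. Its hosts Nr4a1, Crem, Pde4d and Pde4b were also hosts in the list of genes that cyclic AMP induces, so these counts overlap. Gnas, which encodes the stimulatory G protein subunit upstream of adenylyl cyclase, had an all-stage member (positions 740, 1109 and 331) 144.5 bp upstream of its second listed start, and its nearest H3K4 midpoint was 32689 bp away. In Arhgef7 the E16.5 peak was 49.5 bp upstream of the second of 3 starts. Of 24 genes of the CREB and ATF family and its coactivators, 3 hosted members (12.5%), against 2.66% of all protein-coding genes. The median length of the list was 61610 bp, and 3.55% of genes from 30000 to 100000 bp hosted a member. The hosts were Crem, Creb5 with an E16.5 peak 243.5 bp upstream of its second start, and Creb3l1 with 2 members at E16.5 and E18.5, 248 and 490 bp from H3K4.

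Genes of testis cell types were read in the same way. Of 26 genes of Leydig cells and steroidogenesis, 4 hosted a member (15.4%), against 2.66% of all protein-coding genes. The median length of the list was 19009.5 bp, and 2.74% of genes from 10000 to 30000 bp hosted a member. Por, the electron donor of steroidogenic cytochromes P450, had E16.5 and E18.5 peaks 404 bp from H3K4 and 58.5 bp from the start of the lncRNA Gm40345. The only listed start of Por itself, 19105 bp inside the gene's outer 5′ end, also lay within 1000 bp of this member. Cyp11a1, which encodes the enzyme that makes pregnenolone from cholesterol, had an E18.5 peak at chr9:58009119-58009278, 11174.5 bp inside the gene and 6006 bp from H3K4. Nr2f2 had an E16.5 peak and Notch2 an E18.5 peak, 24512 and 64610 bp from H3K4, so only the Por member of these 4 had H3K4 within 1000 bp. None of 22 Sertoli cell genes and none of 25 markers of other cell types hosted a member. Since 2.66% of all protein-coding genes hosted one, a count of 0 in lists of this size is near the background. Of 25 fetal germ cell genes 2 did (8%): Tex14, needed for the bridges between germ cells, had 3 members between 92 and 170 bp from H3K4, 1 shared by E16.5 and E18.5 and 1 alone at each of these stages, and Zbtb16, the PLZF gene, had an E16.5 peak 88422 bp from H3K4. In cholesterol synthesis and uptake 2 of 28 genes (7.14%) hosted a member, Pmvk and Dhcr7, the last enzyme of the pathway, with E16.5 and E18.5 peaks 42.5 bp upstream of the third listed start. A CREB region lay at a gene end of 17 of the 28, and of 16.7% of all protein-coding genes. The germ cell and cholesterol lists had median lengths of 19404 and 18232 bp.

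Genes of chromatin remodelling and corepressor complexes hosted members in 7 of 39 cases (17.95%), against 2.66% of all protein-coding genes. Their median length was 76536 bp, and 3.55% of genes from 30000 to 100000 bp hosted a member. No test was run on such counts. Hdac4, a class IIa deacetylase gene, had an all-stage member (positions 244, 442 and 147) 139.5 bp upstream of its only listed start and 15221.5 bp inside the gene. Sin3a, the scaffold of a deacetylase complex, had an all-stage member (292, 353 and 360) at chr9:57073067-57073696 with H3K4 at 1286 bp, and the E18.5 region at 2700012I20Rik with H3K4 at 958 bp. The midpoint of this E18.5 region lay 4.021 kb inside Sin3a, upstream of the gene's own second listed start at 4.385 kb. Chd2, a remodeller gene, had an all-stage member with the nearest H3K4 at 21110 bp. Smarca2, Chd3 and Hdac9 each had an E16.5 peak, with H3K4 at 638, 428 and 108433 bp. Of 37 genes for histone lysine methylation and demethylation 3 hosted members (8.11%), in a list with a median length of 70154 bp. Kdm6b, an H3K27 demethylase gene, held 4, more than any other gene: an all-stage region and an E18.5 region 1346 and 2456 bp from a gene end, with H3K4 at 8480 and 7371 bp, and farther inside a region listed at E16.5 with H3K4 at 415 bp and another listed at E18.5 with H3K4 at 124 bp. Kdm2b had E16.5 and E18.5 peaks 69.5 bp upstream of the third listed start, and Kdm6a an E16.5 peak 114.5 bp upstream of its only one.

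Splicing factor genes hosted members in 4 of 44 cases (9.09%), against 2.66% of all protein-coding genes. Their median length was 18422.5 bp, and 2.74% of genes from 10000 to 30000 bp hosted a member. Hnrnpl (469, 379 and 295), Srrm2 (575, 340 and 68) and Hnrnph1 (511, 576 and 141) had all-stage members 210.5, 73.5 and 43.5 bp upstream of a listed start, and Hnrnpu an E16.5 peak 1278 bp downstream of its start. Of the clock genes 2 of 22 hosted members (9.09%), in a list with a median length of 34346.5 bp. Tef, a PAR leucine-zipper gene, had a region listed at E16.5 and another listed at E18.5, 587.5 and 103.5 bp upstream of its second start. Arntl, the partner of CLOCK, had an E16.5 region 219.5 bp upstream of a start. Edem1 was the 1 host among 20 genes of the unfolded protein response (5%). In this list 13 genes had a CREB region at an end, as did 16.7% of all protein-coding genes.

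Beyond the lists, the earliest listed members at E16.5 and E18.5 included those in Ptprs, a receptor phosphatase gene (positions 362 and 228), Gpam, the first enzyme of triglyceride synthesis (441 and 750), Nbeal1 (1145 and 246) and Atp5d of the ATP synthase (619 and 822). These 4 had H3K4 within 467.5 bp. At E16.5 alone they were in Thumpd1, Mnt, Hlcs, Dcun1d5 and Spag9, all with H3K4 within 465 bp. At E18.5 alone they were in Sin3a, Crlf2, Fam214b, Fosb and Tef. Crlf2, a cytokine receptor subunit gene, held 3 members within its 4420 bp, 1 listed at E13.5, 1 at both E13.5 and E18.5, and 1 at E18.5, with the doubt on background given above. Dlg4, the PSD-95 gene, held 3 as well, of which 2 were shared by E16.5 and E18.5 and 1 was listed at E18.5 alone.

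The 175 members with neither H3K4 nor a listed start within 1000 bp lay deeper, at a median of 22751.5 bp from the nearest gene end, against 4392 bp for members with a start. Of them 54.9% were listed at E16.5 alone, 22.3% at E18.5 alone and 7 of the 175 at all 3 stages. The 7 with all 3 stages were in Ccnd3, Sin3a, Kdm6b and Chd2, named above, and in Elovl6, a fatty acid elongase gene, Peg3, an imprinted zinc-finger gene, and Mxi1, a MAX partner gene, the last 3 picked out after their values were seen. No start is listed for Kdm6b or Chd2, so members there can lack a nearby start because of the annotation. Among the members farthest from any gene end were those in Ptprd, a receptor phosphatase gene (509675.5 bp, E16.5 and E18.5), and Nrg1, a growth factor gene (485793.5 bp, E16.5 alone). That of Ptprd had its nearest H3K4 midpoint at 1720 bp and that of Nrg1 at 192 bp.

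Over all members the median distance to the nearest gene end was 7036 bp, with a range of 1108 to 509675.5 bp. For the 512 whose host has a known strand, the median distance from the 5′ end was 9437 bp, or 30.0% of the gene. Just inside the threshold were the members of Aktip, Slc6a9 and Gm20517, whose nearer edge lay 1002, 1008 and 1013 bp from a gene end, and just outside it the regions of Tmem230, Mnt and Tsga10 at 994, 999 and 1000 bp. By midpoint, the members nearest a gene end were in Klf13 (1108 bp), Rhoq (1144 bp) and Cgn (1162 bp). The 617 members lay in 582 host genes, of which 546 held 1, 32 held 2, 3 held 3 and Kdm6b 4, and 6 members lay in more than 1 gene. Hosts had a median length of 46329.5 bp, against 17169 bp for all protein-coding genes. The share of genes that host a member was 1.08% from 3194 to 10000 bp, 2.74% up to 30000 bp, 3.55% up to 100000 bp and 7.33% beyond, so counts in lists of long genes are to be read against the last of these.

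A CREB region at an end was found in 96 of the 582 hosts (16.49%, 13.7 to 19.7%), against 16.7% of all protein-coding genes and 18.6% of other genes at least as long as the shortest host. An H3K4 peak at an end was found in 48.1% of hosts, against 52.7% of all protein-coding genes and 59.25% of other genes at least as long as the shortest host. Hosts of members with a listed start had H3K4 at an end in 37.8% of cases (32.3 to 43.7%) and hosts of members with none in 58.0% (52.3 to 63.5%). Lrif1 had H3K4 both at its outer start and at the internal one with CREB, while in Pmvk H3K4 was listed beside the internal start and not at the outer one.

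The peak lists differ in length and in width: peaks were nearly all 150 bp wide at E13.5, 630 bp at E16.5 and 160 bp at E18.5, and the 21211 H3K4 peaks were 210 bp wide. They hold no score or read count, so the depth is unknown. As a check of the tissue, H3K4 was listed at an end or start of 3 of 6 Sertoli markers (Sox9, Amh and Dhh), 3 of 6 Leydig markers (Star, Cyp11a1 and Nr5a1) and 1 of 4 germ cell markers (Dazl), and also of 3 of 3 granulosa, 2 of 3 endothelial, 1 of 3 macrophage, 0 of 2 red cell and 0 of 2 mesonephros markers. Insl3, Cyp17a1, Ddx4 and Nanos2 were among those without it. The part that each cell type plays in the members was not tested.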

How the data were processed

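CUT&RUN peak lists of 4 of the 5 libraries were used. The IgG library was not analysed here, and its title and other labels give different stages. Per the labels' protocols, dissociated male gonads were filtered and 100000 cells used per assay. The deposited values are positions only: each list has chromosome, start and end, with no score, so no unit of signal enters. The submitters' processing notes give mm10 as the build and MACS2, Bowtie2 2.5.2 and Trim Galore 0.6.10 as tools. Peak calling settings, any control, and the meaning of the list order and of the nearly constant widths were not given in the sources used here.

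Peaks on assembled chromosomes were merged and classed with RefSeq gene spans of GRCm38.p6, which shares mm10 coordinates (21887 protein-coding genes). Distances run between midpoints. Listed starts (32851, for 17492 protein-coding genes) and their 300 bp windows came from RefSeq, and 1 chromosome (18, with 15 members) has none there. No genome was used, so the planned motif search in the regions ran in these windows. This search and the listed starts were added after the data were seen. The members and all gene lists were chosen with earlier results of these data known. Of 459 list entries 458 were found.

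Named are the hosts of the 12 all-stage members and the first 5 members of each other stage pattern by list position, genes with 3 or more members, list genes with a member (up to 8 a list), the members nearest the threshold and farthest from an end, the first 5 all-stage members without H3K4, and Pmvk, Sin3a, Nr4a1 and Crem. Genes outside this rule are marked in the text, and some items that the rule or a list selects are not reported here. Alternatives changed the end window, the genes whose ends count, peak width, merging, the lists used and the distances. No test was made, as each group is 1 library. Python 3.11.15 with numpy 2.4.6, pandas 2.3.3, scipy 1.17.1 and matplotlib 3.10.9 was used, and the code was tested on simulated regions.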

Additional observations from a re-analysis of the deposited data

How the results depend on the processing

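The number of members stayed within 1.5 times of 617 under an end window of 500 bp (723) or 2500 bp (455), ends of all annotated genes (550), peaks set to 150 bp (693) and midpoints joined within 200 bp (650). It fell to 399 without the E16.5 list and to 123 when each list was limited to as many first peaks as the E13.5 list holds. With these shorter lists, members with all 3 stages were 40.6%, with 2 or more stages 61.0% and with E16.5 alone 13.01%, and the shares with H3K4 and with a listed start were 77.2% and 65.3%. Without the E16.5 list, 19.5% had 2 or more stages, 74.2% H3K4 and 55.7% a listed start. With the 2500 bp window, E16.5-alone members were 46.2%, all-stage members 9.01%, and those with H3K4 61.1% and a start 41.9%; the 500 bp window gave 50.8% with a start. Peaks of 150 bp gave 35.1% and midpoint joining 35.8% with 2 or more stages, where the reported value is 40.5%. For H3K4, 500 bp gave 56.7%, 2500 bp 71.8% and direct overlap 49.6%. For starts, 250 bp gave 35.4% and 500 bp 41.9%. The CRE core was in 54.7% of member windows in place of 9.31%. Apart from what each change removes by its construction, the cause was not tested. Start-distance alternatives were chosen after seeing the data. No paired analysis was possible because each group is 1 library. List length, width and unknown depth limit every stage comparison.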

Other observations

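Of the 25 members with a listed start and no H3K4 midpoint within 1000 bp, several were in genes of transcriptional regulators, here picked out after their values were seen: Cic, a repressor downstream of receptor tyrosine kinases, at 126.5 bp from a start, Pogz at 103.5 bp, Ing1 at 158.5 bp, Hivep2 at 890.5 bp and Kdm6a at 114.5 bp. Tnrc6a, an argonaute partner gene whose member holds the palindrome, was also among them, 25.5 bp from the start of Gm39084. Members with H3K4 and no listed start, picked out in the same way, included those in Itpkb, Gabbr1, which encodes a GABA-B receptor subunit, and Kat6b, an acetyltransferase gene whose member lay 1008 bp from a listed start, just past the distance used.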
